A study of Mus musculus with 9 samples.

Results

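Late differentiation (day 7) was compared with early differentiation (day 2) in cultures of neural stem and progenitor cells (NSCs/NPCs), using 3 arrays of each stage. The cells came from the hippocampus, dentate gyrus, of adult C57BL6 mice, were grown as neurospheres with EGF and bFGF, and were dissociated and plated on coated dishes. Both groups had then been moved from proliferation medium to differentiation medium, whose recipe lists neither growth factor, and differed in the time spent there: 7 days for late differentiation and 2 days for early differentiation. The members were the probes detected (detection p under 0.05) on at least 3 of these 6 arrays, 19279 of 45281 on the Illumina MouseWG-6 v2.0 BeadChip, which stood for 10365 genes and 3096 probes without a single listed gene. The series held 9 arrays in all. The remaining 3 were proliferating neurospheres (proliferation), whose values stand beside the comparison as a baseline. Replicates 1 to 3 of each stage were labelled biological, and which animals went into each was not stated in the sources used here.

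When neurosphere cells lose their mitogens they leave the cell cycle, attach and turn mainly into glia, with fewer neurons. Astrocytes are marked by the filament protein GFAP, the oligodendrocyte line passes through progenitors that carry Olig and Sox transcription factors and make brevican, and stem cells sit in a matrix of tenascin, chondroitin sulphate proteoglycans and basement membrane collagens. Astrocytes exposed to cytokines or injury enter a reactive state in which they secrete acute-phase proteins, complement regulators and chemokines and raise antigen presentation. The comparison of day 7 with day 2 asks what changed once differentiation had already begun.

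The 6 arrays were of similar depth. The mean signal was 175 ± 3.77 in late and 163 ± 7.10 in early differentiation (SD, n = 3 each), and 18310 to 19919 probes were detected on each late array and 18644 to 19865 on each early array. The late arrays shared a BeadChip with the proliferation arrays and the early arrays lay on another, so that in every value below the BeadChip cannot be told apart from the stage. The first principal component held 44.8% of the variance of the 6 arrays and separated the stages, with late arrays from -32.8 to -12.0 and early arrays from 19.4 to 21.3. Gfap was on average 9.54 on the log2 intensity scale in late and 10.77 in early differentiation, against 5.19 in proliferation, so that both groups stood apart from neurospheres in this marker. Defining markers of microglia were mostly not detected: 14 of 16 on the array were not kept, among them Aif1, Cx3cr1, P2ry12 and Ptprc, and the microglial markers that were kept, Cd14 (1.21 ± 0.46, adjusted p = 0.144) and Csf1r (-0.10), were not called without the replicate numbers, while with them as a block Cd14 was called higher (adjusted p = 0.0145). Cd14 and Csf1r had means of 6.88 and 4.41 in late and 5.67 and 4.50 in early differentiation. The endothelial and mural markers Pecam1, Cdh5 and Cldn5 and the fibroblast markers Col1a1, Col1a2, Dcn and Lum were not kept either, and of the 4 endothelial and mural and 6 fibroblast and meningeal markers that were kept only Fbln2 was called, a call that depends on the background correction and is described with the matrix genes.

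Late differentiation differed from early differentiation in a small share of genes. Of the 10365 genes, 172 were higher and 260 lower by at least 1.5-fold at an adjusted p under 0.05 (limma with Benjamini-Hochberg adjustment over all kept probes), which was 1.66% and 2.51% of the genes tested and 4.17% together. Changes over 2-fold were found for 41 higher and 85 lower genes, and 93.7% of all genes stayed within 1.5-fold, with a median of 0.01 on the log2 scale. The arrays of the stages did not overlap for any of the 432 called genes, and likewise for 29.6% of all genes. Among the probes without a single listed gene 53 were higher and 44 lower (3.13%). With the replicate numbers as a block all 432 genes remained called and 114 more were added, giving 224 higher (2.16%) and 322 lower (3.11%) genes, 5.27% together. Leaving out single arrays gave 102 to 228 higher and 150 to 247 lower genes, the fewest without early replicate 2 (102 higher and 150 lower), and without early replicate 1 170 were lower. On arrays that were not normalized against each other the median gene moved to 0.10, and 304 genes were higher and 149 lower (67.1% of calls higher, against 39.8% after quantile normalization). In such bulk cultures fewer cells of a type and less RNA per cell cannot be told apart.

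**Figure D1:**
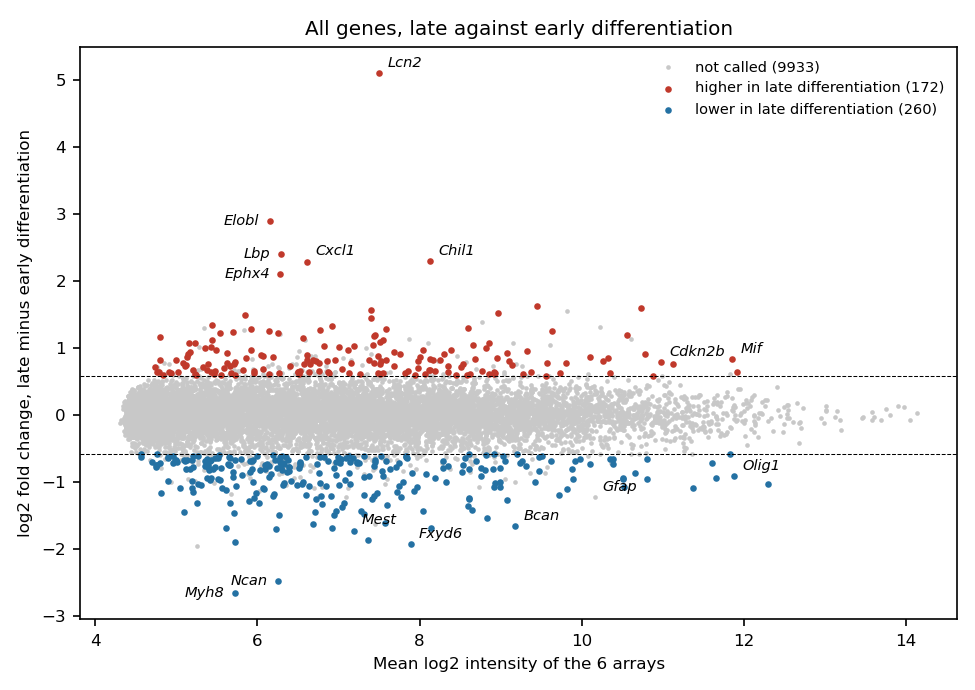
Log2 fold change of late over early differentiation (y axis) against the mean log2 intensity of the 6 arrays (x axis), 1 point per gene; red points were called higher (172), blue points lower (260) and grey points were not called, and dashed lines mark 1.5-fold. Lcn2 stands far above all others at 5.10, and Myh8 and Ncan are lowest at -2.66 and -2.48.

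Of the 12 largest rises 5 were in genes of the acute-phase response and in chemokines (Lcn2, Lbp, Chil1, Cxcl1 and Cxcl10). Of 21 tested genes of the list of reactive astrocyte, acute-phase and complement genes 5 were higher (Lcn2, Chil1, Cxcl10, Serping1 and Cp) and none lower (median 0.34, against 0.01 over all genes and 1.66% called higher). The values of 18 of the 21 were positive and of 3 negative, the latter being Stat3 (-0.10), Cd44 (-0.14) and Hp (-0.18). Of 11 tested chemokines and cytokines 4 were higher and none lower (median 0.32). Cxcl10 was counted in both lists, and Lbp was in neither. Lcn2, which encodes the siderophore-binding acute-phase protein lipocalin-2, had log2 intensities of 11.27, 10.96 and 7.94 in late differentiation, against 5.60, 5.04 and 4.23 in early differentiation. It read 5.07, 5.86 and 4.79 in proliferation. All late arrays lay above all early arrays, and replicate 3 was the lowest of each stage. The difference of 5.10 ± 0.72 (SE, adjusted p = 0.00375) was the largest rise of the comparison and lay between 4.49 and 6.16 when single arrays were left out. Lbp, the lipopolysaccharide-binding protein, had 7.78, 8.15 and 6.54 in late and 5.15, 5.18 and 4.93 in early differentiation (2.40 ± 0.31, adjusted p = 0.00230). It was not detected on any proliferation array. Chil1, the chitinase-like protein secreted by reactive astrocytes, had 9.92, 9.93 and 7.97 in late and 7.35, 7.33 and 6.26 in early differentiation (2.29 ± 0.46, adjusted p = 0.0165). The complement C1 inhibitor gene Serping1 had 6.77, 7.27 and 6.27 in late and 5.75, 5.63 and 5.16 in early differentiation (1.26 ± 0.23), and Cp, the copper ferroxidase ceruloplasmin, was 0.84 ± 0.17 higher (adjusted p = 0.0159). Serpina3n, a protease inhibitor of reactive astrocytes, read 1.55 ± 0.61 (adjusted p = 0.157) and was called with the replicate block only (adjusted p = 0.0301).

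The chemokines that were higher act on different immune cells. Cxcl1, which attracts neutrophils, had 8.32, 8.35 and 6.58 in late and 5.93, 5.44 and 5.02 in early differentiation (2.29 ± 0.52, adjusted p = 0.0271). Its proliferation arrays, at 7.12, 8.22 and 6.29, lay near the late ones and above the early ones, unlike those of Lcn2. Cxcl10, an interferon-induced chemokine for T cells, had 6.84, 7.07 and 5.86 in late and 5.82, 5.17 and 4.33 in early differentiation (1.48 ± 0.37, adjusted p = 0.0376). Csf1, the growth factor of microglia and macrophages, had 8.23, 8.58 and 8.19 in late and 7.68, 7.68 and 7.55 in early differentiation (0.69 ± 0.14, adjusted p = 0.0156), and the membrane-bound chemokine gene Cxcl16 was 0.60 ± 0.12 higher (adjusted p = 0.0144). Replicate 3 was the lowest late and the lowest early array for Lcn2, Lbp, Chil1, Cxcl1 and Cxcl10, and without replicate 3 of every stage these genes were higher by 5.80, 2.80, 2.59, 2.65 and 1.46. Leaving out 1 array at a time, Lcn2, Lbp and Serping1 kept their calls in all 6 fits and Chil1 lost its call without late replicate 1 (adjusted p = 0.0575) or early replicate 3 (0.0541). Cp lost it without late replicate 1 or early replicate 1 or 2 (up to 0.0638), and Cxcl16 without late replicate 1 or 2 (0.58 and 0.52) or early replicate 1 (0.0582). Csf1 lost it without late replicate 2 (a change of 0.57) or early replicate 2 (adjusted p = 0.0533), Cxcl10 lost it without late replicate 1 or 2 or early replicate 2 or 3 (up to 0.106), and Cxcl1 lost it without any array but late replicate 3 (up to 0.0920). After background subtraction Chil1, Cxcl1, Cxcl10, Csf1, Serping1, Cp and Cxcl16 lost their calls, and all of them but Csf1 did so in the deposited value table. Without the detection filter Chil1, Cxcl1, Cxcl10 and Cp lost theirs. A background offset of 50 removed the calls of Cxcl1 and Cxcl16. The call of Cxcl16 was also lost with cyclic loess and without normalization, and those of Cxcl16 and Cxcl10 with the 6 arrays alone. Lcn2 and Lbp kept theirs in every alternative in which they were tested, and Lcn2 was not tested where detection on all 6 arrays was required.

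**Figure D2:**
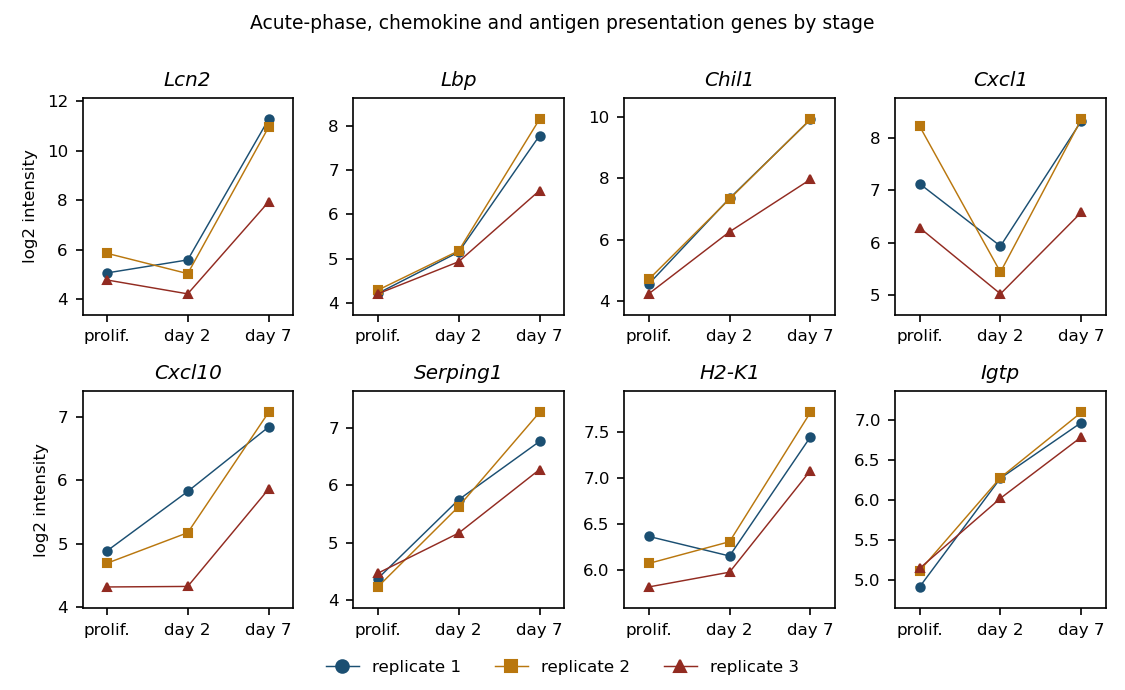
Log2 intensity (y axis) of 8 genes in proliferation, at day 2 and at day 7 (x axis), with a point per array and lines joining arrays of the same replicate number. Lcn2 reaches 11.27, 10.96 and 7.94 at day 7, and replicate 3 (triangles) is the lowest at day 7 in each panel.

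Some genes of antigen presentation were higher as well. Among 15 tested genes of MHC class I antigen presentation 2 were higher and none lower, and all 15 had positive values (median 0.39), against 1.66% called higher and 51.6% positive values over all genes. H2-K1, a class I heavy chain, had 7.44, 7.71 and 7.08 in late and 6.15, 6.30 and 5.97 in early differentiation (1.27 ± 0.18, adjusted p = 0.00383). Tap2, a subunit of the transporter that loads peptides, had 8.47, 8.12 and 8.06 in late and 7.55, 7.17 and 7.20 in early differentiation (0.91 ± 0.15, adjusted p = 0.00744). Both genes kept their calls in all alternatives. B2m (0.26), Tap1 (0.47) and H2-D1 (0.28) did not pass the test, and the class I genes share closely related sequences, so that a probe may also report a relative. Of 18 tested interferon response genes only the GTPase gene Igtp was called, with 6.97, 7.10 and 6.79 in late and 6.27, 6.28 and 6.02 in early differentiation (0.76 ± 0.12, adjusted p = 0.00640). The call of Igtp was lost with a background offset of 50. Ifit3 (1.07, adjusted p = 0.0606 and 0.0131 with the replicate block), Rsad2 (0.54) and Ifit2 (0.52) were not called, and with the block Ifit3 was.

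The promoters of 8 of the 12 higher genes of the acute-phase, chemokine, interferon and MHC lists (with Lbp) were given in RefSeq (build GRCm38.p6), and 4 are shown. These 4 were picked as examples that hold a motif and are not a sample of the rises. Each runs from 250 bases before to 50 after the start of the transcript, and capitals mark matches on either strand to GGG and TTTCC with any 2 bases between them (a kB-type motif), GAAA and GAAA with any 2 bases between them (an interferon-type motif) or TTNNGCAA (a C/EBP-type motif). No position belonged to more than 1 of the motifs in these promoters.
Lcn2 (chr2:32387690-32387989, minus strand): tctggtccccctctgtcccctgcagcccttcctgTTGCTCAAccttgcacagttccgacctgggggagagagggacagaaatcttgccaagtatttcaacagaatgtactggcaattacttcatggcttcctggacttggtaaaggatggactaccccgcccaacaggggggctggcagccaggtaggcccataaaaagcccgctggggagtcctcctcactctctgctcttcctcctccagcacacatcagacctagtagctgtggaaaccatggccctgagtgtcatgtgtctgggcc
Cxcl1 (chr5:90890995-90891294, plus strand): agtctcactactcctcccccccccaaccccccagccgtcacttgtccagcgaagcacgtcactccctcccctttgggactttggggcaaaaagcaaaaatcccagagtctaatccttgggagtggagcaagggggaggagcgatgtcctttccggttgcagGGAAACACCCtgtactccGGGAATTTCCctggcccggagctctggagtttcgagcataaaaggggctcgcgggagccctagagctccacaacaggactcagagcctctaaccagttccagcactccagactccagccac
Cxcl10 (chr5:92348840-92349139, minus strand): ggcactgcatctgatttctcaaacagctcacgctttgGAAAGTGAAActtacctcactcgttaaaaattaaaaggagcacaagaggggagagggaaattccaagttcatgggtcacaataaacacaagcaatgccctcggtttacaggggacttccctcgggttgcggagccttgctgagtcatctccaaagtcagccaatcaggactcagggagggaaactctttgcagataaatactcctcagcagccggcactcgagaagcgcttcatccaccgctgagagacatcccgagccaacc
Igtp (chr11:58199306-58199605, plus strand): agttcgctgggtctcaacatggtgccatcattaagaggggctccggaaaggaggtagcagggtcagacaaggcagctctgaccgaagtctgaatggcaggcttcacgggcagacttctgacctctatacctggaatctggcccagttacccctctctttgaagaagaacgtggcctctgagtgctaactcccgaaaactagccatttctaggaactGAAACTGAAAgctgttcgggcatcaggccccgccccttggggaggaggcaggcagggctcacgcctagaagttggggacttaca
The kB-type letters occurred in 2 of the 8 promoters, those of Cxcl1, at -89 and -71 from the start, and Csf1, and in 1.94% of the 8433 tested genes with a promoter. The interferon-type letters occurred in 2 of the 8, Cxcl10, at -213, and Igtp, at -34, and in 3.40% of the tested genes with a promoter. The C/EBP-type letters occurred in 2 of the 8, Lcn2, at -216, and Cp, and in 9.72% of the tested genes with a promoter.

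The other large rises came from several classes. Ephx4, an epoxide hydrolase family gene, had 7.77, 6.99 and 7.25 in late and 5.35, 4.82 and 5.51 in early differentiation (2.11 ± 0.28, adjusted p = 0.00279). Pamr1, which encodes a secreted protease-domain protein, had 8.31, 8.36 and 7.87 in late and 6.78, 6.42 and 6.67 in early differentiation (1.56 ± 0.15), and it was not detected in proliferation. Prelp, a leucine-rich proteoglycan, had 9.91, 10.31 and 10.54 in late and 8.27, 8.53 and 9.11 in early differentiation (1.62 ± 0.25). The late arrays lay above the early arrays in each of these 3 genes, and each kept its call with every array left out in turn. Prelp lost its call after background subtraction and in the deposited value table. Elobl was higher by 2.90 ± 0.35 (adjusted p = 0.00170), and it was detected on 3 late, 2 early and no proliferation arrays. The mitochondrial intermembrane gene Chchd10 was higher by 1.59 ± 0.42 (adjusted p = 0.0474), and its call was lost without any 1 array (adjusted p from 0.0501 without early replicate 1 to 0.129 without early replicate 3). Ctsa, the lysosomal cathepsin A, was higher by 1.51 ± 0.14 (adjusted p = 0.000717) by its brightest probe, whereas its 3 dimmer probes gave -0.20, -0.37 and -0.39, none of them called. Dusp1, a phosphatase of MAP kinases, had 8.72, 8.62 and 7.05 in late and 6.69, 7.02 and 6.34 in early differentiation (1.45 ± 0.36, adjusted p = 0.0400), with proliferation at 8.17 to 8.54. Its call was lost without any array but late replicate 3 (adjusted p up to 0.116 without late replicate 1).

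**Figure D3:**
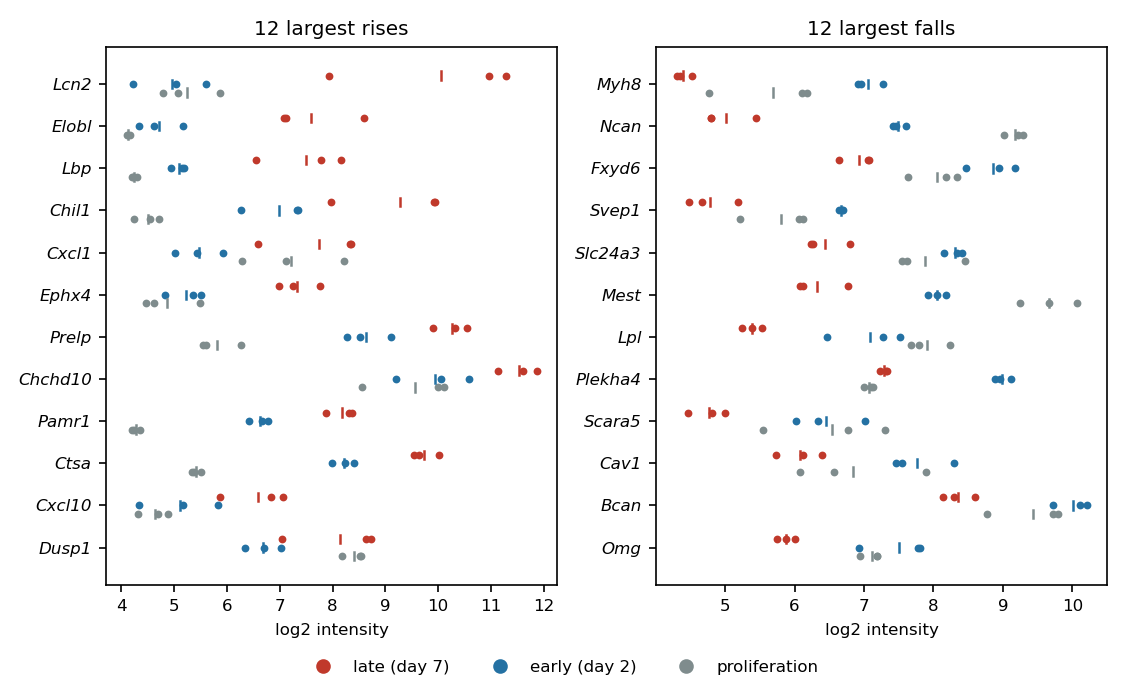
Log2 intensity (x axis) of the 12 largest rises (left) and the 12 largest falls (right) of late against early differentiation, 1 point per array and a bar at each mean; red is late, blue early and grey proliferation. Lcn2 spans 7.94 to 11.27 in late against 4.23 to 5.60 in early differentiation, and Ncan 4.79 to 5.44 in late against 7.42 to 7.60 in early differentiation.

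Smaller rises were found in some genes of motile cilia, cholesterol synthesis, the unfolded protein response and cell cycle restraint, to be read against 1.66% of all genes called higher. Of 18 tested ependymal and cilia genes 4 were higher and none lower, with a median of 0.33 and 17 positive values (51.6% over all genes). The microtubule protein Tekt1 (0.81 ± 0.20), the radial spoke protein Rsph9 (0.72 ± 0.13), Pifo (0.65 ± 0.11), which acts in cilium disassembly, and the dynein component Dnali1 (0.63 ± 0.12) rose, while Foxj1, the master regulator of motile cilia, read -0.18. Rsph9 had 8.79, 8.95 and 8.87 in late and 8.15, 7.95 and 8.35 in early differentiation. All 4 were already above proliferation at day 2, and Dnali1 and Pifo were not detected on any proliferation array. Among 17 tested cholesterol synthesis genes 3 were higher (median 0.24): the sterol oxidase Msmo1 (0.96 ± 0.21), the regulator Srebf2 (0.64 ± 0.16) and Fdps (0.62 ± 0.16), which makes farnesyl diphosphate. Msmo1 had 9.99, 9.75 and 9.67 in late and 9.32, 8.95 and 8.27 in early differentiation, both below its 10.23 to 10.39 in proliferation. Nr1h3, the liver X receptor alpha of cholesterol efflux, was higher as well (0.81 ± 0.18).

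Of 23 tested heat shock and unfolded protein response genes Herpud1 (0.92 ± 0.15), which acts in the degradation of misfolded proteins, and the transcription factors Xbp1 (0.73 ± 0.12) and Ddit3 (0.61 ± 0.12) were higher and none was lower (median 0.19). The dimmer Ddit3 probe read 0.41 and was not called. Herpud1 had 9.59, 9.71 and 9.33 in late and 8.37, 8.66 and 8.83 in early differentiation. Of 16 tested genes that restrain the cell cycle, the inhibitors Cdkn2b (p15, 0.78 ± 0.18) and Cdkn1a (p21, 0.59 ± 0.13) were higher (median of the list 0.12), and Cdkn2b had 11.66, 11.36 and 11.09 in late and 10.95, 10.48 and 10.33 in early differentiation. Among 21 tested immediate early genes (median 0.17) Jund (0.93 ± 0.14) and Jun (0.77 ± 0.16) rose beside Dusp1, and Egr3 fell by 1.49 (adjusted p = 0.00576), although its dimmer probe gave 0.01. The shares over all genes were 1.66% called higher and 2.51% called lower. The glucose transporter gene Slc2a1 (1.26 ± 0.23), the lysosomal Naglu (0.81 ± 0.19), the Polycomb reader Cbx7 (0.62 ± 0.11), the metalloproteinase Mmp11 (0.88 ± 0.13) and the ephrin Efna1 (0.77 ± 0.14) were higher too. Herpud1, Xbp1, Jund, Mmp11 and Efna1 kept their calls with each array left out. With a background offset of 50 the calls of Jund, Mmp11 and Efna1 were lost. The calls of Naglu, Cdkn2b and Cdkn1a were lost without late replicate 1 or 2 or early replicate 2, and without early replicate 1 for Naglu and early replicate 3 for the inhibitors (adjusted p up to 0.113, 0.101 and 0.0780), Slc2a1 and Ddit3 lost theirs without early replicate 1 or 2 (up to 0.0541 and 0.0613), Jun without late replicate 1 or 2 or early replicate 1 or 3 (up to 0.0734) and Cbx7 without late replicate 3 or early replicate 1 (changes of 0.58 and 0.56). The smaller rises of Tekt1, Rsph9, Pifo, Dnali1, Msmo1, Srebf2, Fdps and Nr1h3 rested on single arrays too: Tekt1 was lost without late replicate 1 or 3 or early replicate 2 or 3 (adjusted p up to 0.139), Rsph9 without early replicate 2 (0.0528), Pifo without late replicate 1 (a change of 0.54), Dnali1 without late replicate 1 or early replicate 2 (up to 0.0623), Msmo1 without late replicate 1 or early replicate 2 (up to 0.0779), and Srebf2, Fdps and Nr1h3 in 5 of 6 fits (up to 0.0868, 0.106 and 0.0803), the exception being early replicate 2 for Srebf2 and Fdps and late replicate 3 for Nr1h3.

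Proteoglycans and other proteins of the stem cell matrix were among the falls, and of the 12 largest falls Ncan and Bcan belonged to them. Of 22 tested genes of the niche matrix 4 were lower and none higher (median -0.21, against 2.51% of all genes called lower), and with the replicate block 6 were lower and 1 was higher. Ncan, which encodes neurocan, a chondroitin sulphate proteoglycan of brain matrix, had 4.80, 5.44 and 4.79 in late differentiation, against 7.42, 7.46 and 7.60 in early differentiation. It read 9.22, 9.01 and 9.29 in proliferation, so that the stages were in the order of time with no overlap. The difference was -2.48 ± 0.17 (adjusted p = 7.45e-05). Bcan, the related brevican, had 8.14, 8.30 and 8.60 in late and 10.21, 10.11 and 9.73 in early differentiation (-1.67 ± 0.25, adjusted p = 0.00461), with 8.78 to 9.79 in proliferation, and another probe was called lower as well (-1.39). Its dimmest probe (-0.76) was detected on 3 early and 0 late arrays. That probe passed the detection filter through its early arrays alone and adds no support. Tnc, tenascin-C, had 5.20, 5.87 and 5.30 in late and 6.18, 6.54 and 6.63 in early differentiation (-0.997 ± 0.21, adjusted p = 0.0185), far below its 11.21 to 11.87 in proliferation. Nid2, a nidogen of basement membranes, was lower by a smaller step (-0.59 ± 0.15, adjusted p = 0.0409). Not all matrix genes moved: Fn1 (-0.31), Sparc (0.06), Lamb2 (0.29) and Vcan, the versican gene (-0.23), were not called. Ncan and Bcan kept their calls in all alternatives, Tnc lost its call without late replicate 1 or 3 or early replicate 2 or 3 (adjusted p up to 0.0752), and Nid2 without any array but late replicate 2 (up to 0.112).

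Collagens were divided. Of 15 tested collagen genes 4 were lower and 1 was higher, with a median of -0.54. Over all genes 2.51% were called lower and 1.66% higher. The chains of basement membrane collagen IV, Col4a1 and Col4a2, were lower by different amounts. Col4a1 had 7.45, 6.97 and 7.07 in late and 8.59, 8.25 and 8.34 in early differentiation (-1.23 ± 0.17, adjusted p = 0.00375), and Col4a2 had 5.83, 6.19 and 5.86 in late and 6.75, 6.54 and 6.74 in early differentiation (-0.71 ± 0.13, adjusted p = 0.0121). The transmembrane collagen gene Col23a1 (-0.90 ± 0.17) and Col16a1 (-0.66 ± 0.15) were lower as well. Col5a1, a fibrillar collagen chain, ran the other way, with 9.21, 9.34 and 9.20 in late and 7.57, 7.93 and 8.37 in early differentiation (1.29 ± 0.27, adjusted p = 0.0200). Its call was lost without late replicate 1 or early replicate 1 or 2 (adjusted p up to 0.0781), that of Col23a1 without early replicate 1 (0.0549), and that of Col16a1 without late replicate 1 or 3 or early replicate 1 or 2 (up to 0.109). Adamts9, a protease of proteoglycans, fell by 1.24 (adjusted p = 0.00472), while its dimmer probe read -0.40 and was not called. The proteoglycan-binding fibulin gene Fbln2 was not detected on any late array and was at least 1.93-fold lower than in early differentiation. Fbln2 had passed the detection filter through its 3 early arrays, and its call was lost with a background offset of 50, after subtraction of the background, in the deposited value table and without the filter.

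Called genes of the oligodendrocyte progenitor, mature oligodendrocyte and astrocyte lists were lower, whereas those of the reactive astrocyte and ependymal lists above were higher. Of 15 tested oligodendrocyte progenitor genes 3 were lower and none higher (median -0.42), namely Bcan, Sox8 and Olig1, and of 22 tested astrocyte genes 3 were lower and none higher (median -0.26). The share called lower over all genes was 2.51%, and 3.11% with the replicate block. With the replicate block 5 genes of each list were lower, with Cspg5 and Nkx2-2 added to the progenitor genes and Cldn10 and Gfap to the astrocyte genes. Sox8, a transcription factor of the oligodendrocyte line, had 6.08, 5.64 and 6.32 in late and 6.97, 7.59 and 7.05 in early differentiation (-1.19 ± 0.19, adjusted p = 0.00666). Olig1, a bHLH factor of that line, had 11.75, 11.47 and 11.04 in late and 12.41, 12.16 and 12.43 in early differentiation (-0.91 ± 0.18, adjusted p = 0.0139), with 13.05 to 13.41 in proliferation. Pdgfra (-0.51), Sox10 (-0.24) and Cspg4 (0.07), further markers of these progenitors, were not called. Omg, the oligodendrocyte-myelin glycoprotein, was the only one of 11 tested genes of mature oligodendrocytes to be called, with 5.87, 5.999 and 5.75 in late and 7.80, 7.77 and 6.92 in early differentiation (-1.63 ± 0.20, adjusted p = 0.00206). The myelin genes Mbp, Mog and Mag were not kept. The called genes of the astrocyte list were Agt, angiotensinogen (-1.43 ± 0.28, adjusted p = 0.0151), the membrane protein gene Mlc1 (-0.81 ± 0.16) and the growth factor receptor gene Fgfr3 (-0.61 ± 0.11). Gfap had 9.999, 9.58 and 9.05 in late and 11.39, 11.09 and 9.85 in early differentiation, so that the groups overlapped by 1 array. Its change of -1.23 ± 0.35 missed the threshold (adjusted p = 0.0619), and with the replicate block it was called lower (adjusted p = 0.00448). Aqp4 (-0.61), Aldh1l1 (-0.42), Slc1a3 (-0.03) and Slc1a2 (0.27) were not called. Leaving out 1 array, Sox8 and Omg kept their calls, Olig1 lost its call without early replicate 1 (adjusted p = 0.0542), Agt and Mlc1 without late replicate 1 or early replicate 1 (up to 0.0591 and 0.0541) and Fgfr3 without late replicate 1 (a change of -0.58) or early replicate 1 or 2 (-0.56 each).

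**Figure D4:**
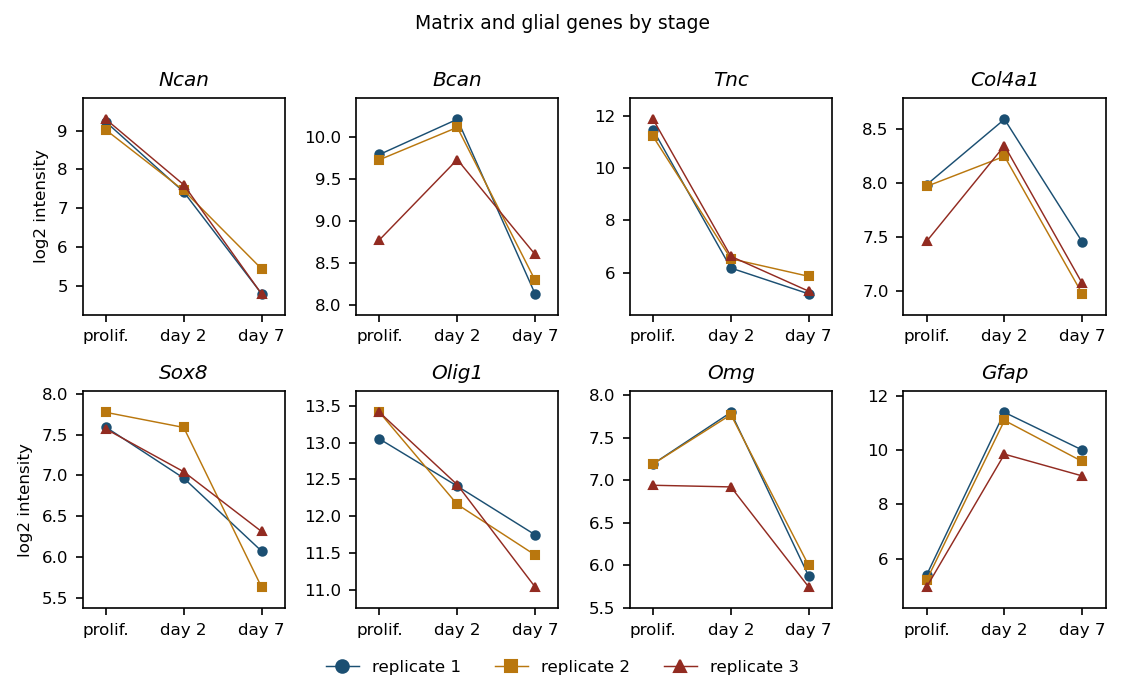
Log2 intensity (y axis) of 8 matrix and glial genes in proliferation, at day 2 and at day 7 (x axis), with a point per array and lines joining arrays of the same replicate number. Ncan, Tnc, Sox8 and Olig1 are on average highest in proliferation, while Col4a1 and Gfap are highest at day 2; Gfap has 9.999, 9.58 and 9.05 at day 7 against 11.39, 11.09 and 9.85 at day 2.

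Among stem cell genes 3 fell, and among genes of neurons 1 was called. Of 15 tested neural stem cell genes Tnc, the fatty acid binding protein Fabp7 and the EGF receptor Egfr were lower and none was higher (median -0.12, against 2.51% of all genes called lower). Fabp7 had 5.45, 5.62 and 5.80 in late and 6.40, 6.36 and 6.58 in early differentiation (-0.82 ± 0.13, adjusted p = 0.00536), and Egfr had 9.75, 9.45 and 9.54 in late and 10.28, 10.20 and 10.31 in early differentiation (-0.68 ± 0.11, adjusted p = 0.00581). The dimmer Egfr probes were divided: those at -0.80 and -0.97 were called and those at -0.29 and -0.40 were not. The stem cell factor Sox2 (0.10 ± 0.16) was not called. Nes, nestin, was higher by 0.56 ± 0.14 (adjusted p = 0.0349), just under 1.5-fold, with 9.46, 9.61 and 9.23 in late and 8.72, 8.81 and 9.08 in early differentiation. Dcx, doublecortin of young neurons, was near background, with 4.95, 4.79 and 4.62 in late and 4.53, 4.42 and 4.42 in early differentiation (0.33 ± 0.11, adjusted p = 0.0996), detected on 3 late, 2 early and no proliferation arrays. Of 20 tested young neuron genes only Ncam1, a cell adhesion molecule, was called (-1.02 ± 0.12, adjusted p = 0.00139), by its brightest probe, and its 3 other probes read -0.02, 0.35 and -0.13. None of 20 tested synapse genes was called, while 4 of them had an unadjusted p under 0.05 (all lower) and 1 was called with the replicate block.

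The remaining large falls included channels, growth factor binding proteins and imprinted genes. Myh8, a perinatal myosin heavy chain, had the largest fall, with 4.30, 4.52 and 4.35 in late and 6.92, 6.96 and 7.28 in early differentiation (-2.66 ± 0.30, adjusted p = 0.00124). It was detected on 1 of 3 late arrays, and its dimmer probes fell less (-0.79, called, and -0.53, adjusted p = 0.0508, not called). Fxyd6, a regulator of the sodium pump, had 7.07, 7.06 and 6.65 in late and 8.46, 9.17 and 8.94 in early differentiation (-1.93 ± 0.22), and Slc24a3, a sodium-calcium exchanger, had 6.24, 6.27 and 6.79 in late and 8.16, 8.34 and 8.41 in early differentiation (-1.87 ± 0.23). Plekha4, a phosphoinositide-binding protein, had 7.33, 7.23 and 7.31 in late and 9.11, 8.88 and 8.96 in early differentiation (-1.70 ± 0.10, adjusted p = 2.78e-05), while proliferation, at 7.00 to 7.13, was close to late differentiation. Of 18 tested potassium channels and ion pumps 4 were lower and none higher (median -0.15, against 2.51% of all genes called lower): Kcnd2, the A-type channel Kv4.2 (-1.21 ± 0.13, with -0.40, not called, by its dimmer probe), the accessory subunit Kcne1l (-1.04 ± 0.26), the voltage-gated channel Kcna6 (-0.83 ± 0.22) and the sodium-activated channel Kcnt1, which was not detected on any late array and was at least 1.35-fold lower. Kcnt1 had passed the detection filter through its 3 early arrays alone, its change was 0 after background subtraction and in the deposited value table, and its call was also lost with cyclic loess, without normalization, with an offset of 50 and with the 6 arrays alone. Svep1, a secreted adhesion protein, fell by 1.90 and Scara5, a ferritin receptor, by 1.70, in Scara5 by its brighter probe only (0.08 by the other). Cav1, the caveolae protein, fell by 1.69 (adjusted p = 0.0289). Myh8, Fxyd6, Slc24a3, Plekha4, Svep1 and Kcnd2 kept their calls with every array left out, Cav1 lost its call without any 1 array (adjusted p from 0.0517 to 0.106), Kcne1l without late replicate 1 or any early replicate (up to 0.0946), Scara5 without late replicate 1 or 3 or early replicate 1 or 2 (up to 0.105) and Kcna6 without any array but late replicate 1 (up to 0.117).

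Of 13 tested genes of cholesterol efflux and lipid handling 3 were lower and 1 was higher (median -0.01), and of 12 tested genes of insulin-like growth factors (IGF) and their binding proteins 2 were lower (median -0.22), against 2.51% of all genes called lower. Lpl, lipoprotein lipase, had 5.38, 5.53 and 5.23 in late and 7.52, 7.28 and 6.47 in early differentiation (-1.71 ± 0.24, adjusted p = 0.00373), and its secreted inhibitor Angptl4 had 7.48, 7.04 and 6.16 in late and 8.19, 7.87 and 8.11 in early differentiation (-1.16 ± 0.26, adjusted p = 0.0250). Igfbp4 had 6.70, 6.95 and 6.69 in late and 8.11, 7.90 and 8.11 in early differentiation (-1.26 ± 0.18, adjusted p = 0.00392), and Igfbp2 had 6.20, 7.42 and 5.46 in late and 7.72, 7.78 and 7.71 in early differentiation (-1.37 ± 0.36, adjusted p = 0.0474). Both binding proteins were far higher in proliferation, at 11.12 to 11.90 for Igfbp4 and 11.41 to 11.73 for Igfbp2. Of 10 tested imprinted genes 3 were lower: Mest, with 6.08, 6.76 and 6.13 in late and 8.06, 8.18 and 7.92 in early differentiation (-1.73 ± 0.22, adjusted p = 0.00208), Nnat (-0.85 ± 0.22) and Peg10 (-0.75 ± 0.18), which was detected on 1 of 3 late arrays and read -0.27, not called, after background subtraction. The dimmer Nnat probes read -0.42 and -0.44, neither called. Those of Mest read -1.58, called, and -0.91, not called. Called lower in other lists were the guidance receptor Ephb1 (-1.43 ± 0.30), the semaphorin Sema5a (-0.73 ± 0.19, with 0.20, 0.28 and -0.56 by its 3 other probes, none called), the Wnt ligand Wnt7a (-0.90 ± 0.16), the Notch ligand Dll1 (-0.65 ± 0.14), the FGF target Etv4 (-0.72 ± 0.15, detected on 2 of 3 late arrays), the Polycomb methyltransferase Ezh2 (-0.86 ± 0.22), the glycine transporter Slc6a9 (-0.70 ± 0.14), Lmo3 (-0.75 ± 0.17, with -0.34, not called, by its dimmer probe) and the oxygen sensor Egln3 (-0.74 ± 0.15). Lpl, Mest and Igfbp4 kept their calls in every alternative. Igfbp2 lost its call without any array but late replicate 2 (adjusted p up to 0.136), Angptl4 without any early replicate (up to 0.0853), Nnat and Ezh2 in 5 of 6 fits (up to 0.152 and 0.117, kept without early replicate 3 for Nnat and late replicate 3 for Ezh2), Peg10 and Ephb1 without late replicate 1 or 3 or early replicate 1 or 2 (up to 0.105 and 0.0790), Sema5a without late replicate 1 or 3 or early replicate 2 or 3 (up to 0.135), Dll1 and Lmo3 without late replicate 1 or any early replicate (up to 0.0729 and 0.0914), Etv4 without late replicate 3 or early replicate 1 or 2 (up to 0.0615), Egln3 without late replicate 1 or early replicate 1 or 3 (up to 0.0565), Slc6a9 without early replicate 1 or 2 (up to 0.0628) and Wnt7a without early replicate 2 (0.0527).

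The lists of DNA replication, mitosis, oxidative phosphorylation, ribosomal and antioxidant genes had no called member. In limma none of 34 tested DNA replication genes was called (median -0.01, values from -0.32 to 0.30, 2 with an unadjusted p under 0.05), and none of 16 tested mitosis genes (median -0.07, 1 with an unadjusted p under 0.05). None was called among 31 oxidative phosphorylation genes (median 0.16, 7 with an unadjusted p under 0.05, all higher), 27 cytosolic ribosomal protein genes (median -0.07, 6 at that p), 22 ribosome biogenesis genes (median 0.08, 5 at that p) or 25 metallothionein and antioxidant genes (median 0.03, 7 at that p). The replicate block called none of these either. Of 28 mitosis genes on the array only the 16 tested were kept. All of the 16 but Kif23 read far lower at day 2 than in proliferation. Some were already near background, such as Cdk1 (4.81 against 8.80) and Birc5 (4.45 against 7.92), each detected on 1 of 3 late arrays. Others, such as Cenpa, Prc1 and Nusap1, stood higher. For genes near background a further fall could hardly be seen, so the lack of calls does not show stable expression. Among 24 tested glycolysis and hypoxia genes 1 was higher (Slc2a1) and 1 lower (Egln3), with a median of 0.24. Over all genes 1.66% were called higher and 2.51% lower. For each list of this size, 1 call or none in a direction is near those shares. Of 8 reference genes, 7 were tested and none was called: Gapdh (0.36), Tbp (0.05), Actb (-0.13), Hprt (0.43, while its dimmer probe was called higher at 0.61, adjusted p = 0.0144), Ppia (0.22), Ywhaz (-0.13) and Pgk1, which was higher by 0.52 ± 0.09 (adjusted p = 0.0111), under 1.5-fold. Without normalization between arrays Actb read 0.060 and Ywhaz 0.053.

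**Figure D5:**
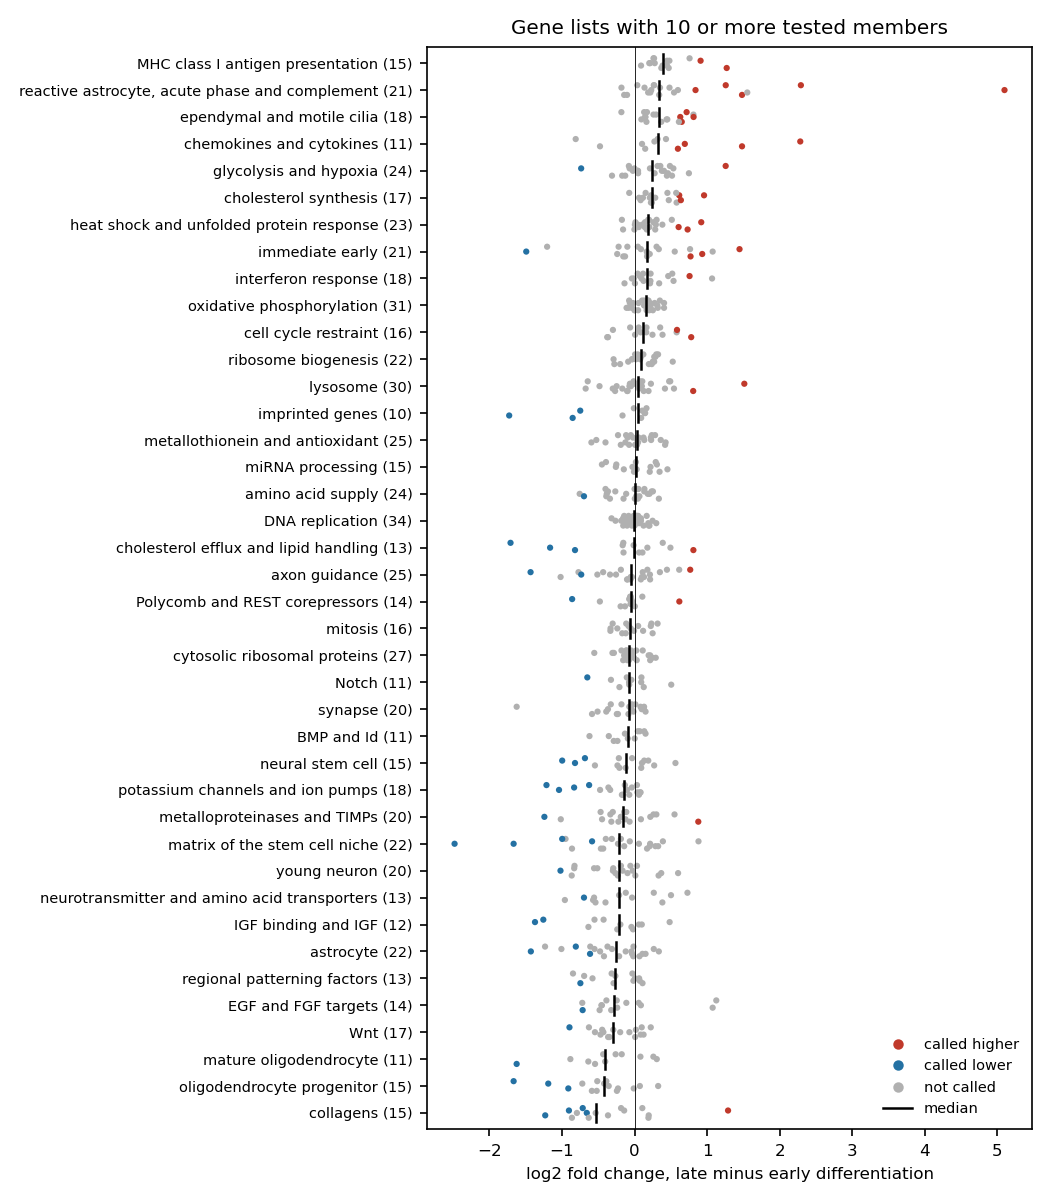
Log2 fold change of late over early differentiation (x axis) for each tested member of 40 gene lists with at least 10 tested members (y axis, number tested in parentheses); red was called higher, blue lower, grey not called, and the black bar is the list's median. The acute-phase, cilia, chemokine and MHC lists have medians of 0.32 to 0.39 and the collagen list has the lowest, -0.54.

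The study examined the miR-30 family, microRNAs (miRNAs) that bind mRNAs through their seed, and its candidate targets. The mature 5p sequences of miR-30a, miR-30c and miR-30e are shown from RefSeq, with the seed, bases 2 to 8, in capitals. They carry the same seed. The family also holds miR-30b and miR-30d.
miR-30a-5p: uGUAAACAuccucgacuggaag
miR-30c-5p: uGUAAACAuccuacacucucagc
miR-30e-5p: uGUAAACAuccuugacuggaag
Of the 6 candidates that the study took from its culture data, all tested here, Omg was lower (values above) and the others were not called, and since the study chose these candidates on these samples, their direction is no independent evidence. The dimmer Omg probe read -0.44 and was detected on 3 early and 0 late arrays, so that it passed the filter through its early arrays alone. Nrp1, a semaphorin co-receptor, had 6.90, 5.91 and 6.002 in late and 7.70, 7.48 and 6.69 in early differentiation (-1.02 ± 0.29), and these groups overlapped. It missed the threshold (adjusted p = 0.0601) and was called lower with the replicate block (adjusted p = 0.0104). Kmt2c, the histone methyltransferase also called Mll3 (-0.20), Adgra3, formerly Gpr125 (-0.36), Ppp3r1, the regulatory subunit of calcineurin (-0.01), and the corepressor Rcor1 (-0.13) were not called. The candidates from defeated mice, 6 tested of 7, held none that was called without the block (Osmr 0.34, Ifngr1 0.06, Khnyn 0.01 and Runx1 -0.04, beside Nrp1 and Socs3). Socs3, an inhibitor of cytokine signalling, had 7.79, 8.41 and 6.72 in late and 7.36, 6.81 and 6.96 in early differentiation (0.60 ± 0.33, adjusted p = 0.313). Single arrays moved it from 0.21 without late replicate 2 to 1.06 without late replicate 3, where it was called (adjusted p = 0.0201), and it read 1.02 without replicate 3 of every stage (adjusted p = 0.0505). Of 15 tested genes of miRNA processing none was called by limma, 6 had an unadjusted p under 0.05 and none was called with the block. The nuclease genes Drosha (0.21 ± 0.16) and Dicer1 (0.22 ± 0.09) were not called, and Dgcr8, the RNA-binding partner of Drosha, had 5.66, 5.86 and 5.68 in late and 6.07, 6.15 and 6.15 in early differentiation (-0.39 ± 0.10, adjusted p = 0.0377), less than 1.5-fold.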

How the data were processed

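RNA from 3 cultures per stage was amplified, biotin-labelled and hybridised to 1-colour Illumina MouseWG-6 v2.0 BeadChips. The deposited table held, per probe and array, an intensity and a detection p-value exported by the authors from GenomeStudio, the tool named in the submitters' processing notes. The study's methods describe background subtraction, but the deposited intensities still contained the background. The authors' deposited value table was a linear function of these intensities on each array (r = 1), with the background taken off and array medians of 2.84 to 3.92 and the same mean of 107 on every array, and served as an alternative. 0 columns were left out.

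In R 4.3.3 with limma 3.58.1, intensities were corrected by normexp with the background estimated from the detection p-values (offset 16), quantile normalized over the 9 arrays and taken to log2, and a mean per stage was fitted to the 9 arrays, which share 1 estimate of the spread (lmFit, eBayes). Probes detected at p under 0.05 on at least 3 of the 6 differentiation arrays were kept, and p-values were adjusted over all 19279 of them (Benjamini-Hochberg). Where several probes of a gene were kept, the brightest over the 9 arrays stood for it. The threshold for a call was an adjusted p under 0.05 together with a change of at least 1.5-fold. Errors are standard errors of the fit unless SD is written, and precision is limited by 3 arrays per group; an exact permutation test of 3 against 3 arrays cannot go below p = 0.1 (two-sided). A gene not detected on any array of a group was given as a bound against the lowest detected signal. Of the probes, 34885 had 1 gene symbol, 18 several and 10378 none.

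The members, gene lists and tests were chosen with earlier results of these data known. Named genes were the 12 largest rises and falls, up to 3 called members of each list per direction, the stage markers, miR-30 candidates, reference genes and core miRNA processing genes. Further called members (Serping1, Cp, Cxcl16, Dnali1, Nid2, Col16a1, Kcnt1), uncalled members and histone genes were named after their values were seen. Same-numbered late and early arrays deviated together from their stage means (r = 0.249, 0.141 and 0.326), against -0.236 to 0.000845 for unlike numbers. Deviations cancel within a stage, which lowers the values for unlike numbers. The labels state no pairing across stages. The numbers were taken to pair the samples from these same data, and a fit with the replicate number as a block was added. The fit was tested on simulated data. Promoters and mature miRNAs were taken from RefSeq (GRCm38.p6). Alternatives changed the normalization, background, detection filter, choice of probe, arrays fitted and single arrays.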

Additional observations from a re-analysis of the deposited data

How the results depend on the processing

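Of the 80 called genes named by the rule, 24 kept the call in every alternative in which they were tested. These were 18 alternatives, or 17 for Lcn2, Elobl and Myh8, which were not tested where detection on all 6 arrays was required. Of the 80, 36 kept the call with every array left out in turn, 44 lost it without at least 1 array, and none changed sign. Without normalization between arrays 304 genes were higher and 149 lower. A background offset of 50 gave 90 higher and 130 lower genes, subtraction of the background with a floor at 16 gave 131 higher and 154 lower, and the deposited value table gave 114 higher and 176 lower. Without the detection filter, where 19057 genes were tested, 115 were higher and 176 lower. Among all 432 called genes 2 changed sign after subtraction, 1 in the value table and 1 with the mean of all probes of a gene. Of 161 called genes with several kept probes, every probe was called the same way in 57 and had the same direction in 142. Single arrays left out gave 102 to 228 higher and 150 to 247 lower genes. Cyclic loess (137 and 231), probes detected on all 6 arrays (164 and 240), the mean of all probes (151 and 227) and the 6 arrays alone (148 and 233) stayed within 1.5 times the counts. These 2 fits were chosen after seeing the data: without replicate 3 of every stage 257 genes were higher and 280 lower, and a fit over 1 probe per gene gave 174 and 260. At an unadjusted p under 0.05 and 1.5-fold, 243 were higher and 361 lower.

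The fit with the replicate block gave 224 higher and 322 lower genes; among the genes named by the rule it changed the calls of Gfap and Nrp1 and no other, and among the further genes named it added Cd14, Serpina3n, Ifit3, Cspg5, Nkx2-2 and Cldn10.

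Signs changed only in named genes that were not called. Khnyn read -0.0094 with cyclic loess and -0.032 in the value table. Without normalization Ppp3r1 read 0.14, Runx1 0.0046, Actb 0.060 and Ywhaz 0.053, and with the mean of all probes Dicer1 read -0.023 and Tbp -0.050. Without replicate 3 of every stage Sox2 read -0.0099, Tbp -0.020, Khnyn -0.012 and Runx1 0.090. With single arrays left out Sox2 ranged from -0.026 to 0.30, Ifngr1 from -0.024 to 0.17, Tbp from -0.018 to 0.088, Khnyn from -0.063 to 0.070, Ppp3r1 from -0.070 to 0.054, Runx1 from -0.22 to 0.12 and Kmt2c from -0.34 to 0.031. The cause of these changes was not tested. Intensity over background limits Myh8, Elobl, Lcn2, Dcx, Cxcl10, Etv4, Peg10, Fbln2, Kcnt1 and Runx1, each undetected on at least 1 array of a differentiation stage.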

Other observations

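Histone genes were looked at after their values were seen. Of 7 tested H4 genes 3 were higher at day 7 than at day 2 and none lower (median 0.56, from 0.21 to 1.15), against 1.66% of all genes called higher. H4c11 had 6.94, 7.41 and 7.05 in late and 5.95, 5.97 and 6.04 in early differentiation (1.15 ± 0.12, adjusted p = 0.00106), and H4c1 had 8.03, 8.24 and 7.90 in late and 6.91, 6.86 and 7.12 in early differentiation (1.09 ± 0.11). H4c12 was higher by 0.99 ± 0.19. Of 14 tested H2A genes 1 was lower and none higher (H2ac6, -0.62, median -0.13), and none of 10 H2B genes (median 0.24) or 6 H3 genes (median 0.07) was called. The H4 genes encode the same protein and have closely related sequences, so that a probe may also report a relative. Replication-dependent histone mRNAs mostly lack a poly(A) tail, and the labelling started from poly(A).

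Further genes of motile cilia outside the list were higher: Spag6l (1.19, adjusted p = 0.00896), Maats1 (1.01, 0.00380), the dynein assembly factor Dnaaf3 (0.92, 0.00988) and Zmynd10 (0.73, 0.00585), another dynein assembly factor. They were picked after their values were seen. Nfkb2, a subunit gene of the NF-kB family, was higher by 0.63 (adjusted p = 0.0222).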
